A study of Mus musculus with 12 samples.

Results

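The interaction of genotype and feeding asks, for every gene, whether the liver responded to a meal differently without lipin 1. It is the refed minus fasted difference in Lpin1-/- mice minus the same difference in Lpin1+/+ mice, on log2(RPKM + 1), where RPKM is a read count divided by transcript length and by the library total and 1 is the value added before the logarithm. The rule takes no measured value, so its members are all genes that could be tested: 11507 of the 22456 genes listed averaged 0.5 RPKM or more. A value above 0 means that a gene moved up more, or down less, on refeeding in Lpin1-/- than in Lpin1+/+ liver. The libraries are liver RNA of male BALB/cByJ mice aged 2 to 8 months, with 3 mice in each of 4 groups: Lpin1+/+ fasted, Lpin1+/+ refed, Lpin1-/- fasted and Lpin1-/- refed. The Lpin1-/- mice carry the fatty liver dystrophy (fld) mutation, which is present in every tissue, and the Lpin1+/+ mice are their wild-type littermates. All mice were fasted for 16 hours in single cages, and the refed mice then had chow for 5 hours, so the feeding states were also sampled at different times of day. Each library is 1 mouse, and nothing in the labels ties mice of the same replicate number to a litter.

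Lipin 1 is a phosphatidate phosphatase that makes diacylglycerol, the precursor of triglyceride and of several phospholipids, and in the nucleus it also acts with transcription factors of fasting and of sterol synthesis. After a meal, insulin signalling in hepatocytes turns off FoxO factors and the genes they drive in fasting, and turns on SREBP factors, which drive the genes of fatty acid and cholesterol synthesis. SREBP is held in the endoplasmic reticulum by the Insig proteins when sterols are plentiful. A meal also loads the endoplasmic reticulum with secretory proteins, which raises the chaperones that fold them.

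Lpin1 itself (chromosome 12, chr12:16535669-16610966 on GRCm38, minus strand) was listed at 21.96, 0.726 and 1.76 RPKM in the fasted Lpin1+/+ livers and at 2.92, 0.784 and 2.76 in the refed ones. In Lpin1-/- liver it stood at 0.0597, 0.0566 and 0.0368 RPKM fasted and 0.00573, 0.0238 and 0.00962 refed, so every knockout library lay below every wild-type library. Its interaction was 0.63 ± 1.02 (SE, adjusted p = 0.761), and the highest wild-type value came from replicate 1 of the fasted group. In each group 1 library was less like the other two, with a correlation across genes of 0.942 and 0.961 against 0.990 in fasted Lpin1+/+ (replicate 1), 0.932 and 0.934 against 0.987 in refed Lpin1+/+ (replicate 2), 0.939 and 0.960 against 0.982 in fasted Lpin1-/- (replicate 1), and 0.969 and 0.973 against 0.995 in refed Lpin1-/- (replicate 1). The file holds no counts. The relative depth, read from steps in low RPKM values, ran from 0.866 to 1.16 of that of the first fasted wild-type library, so depth differed little between libraries.

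The response to refeeding depended on genotype for 147 genes (1.28% of those tested), whose interaction passed an adjusted p of 0.05 in limma with Benjamini-Hochberg adjustment. Of these, 91 (0.791% of genes tested) lay above 0 and 56 (0.487%) below 0, a split that turned when some single libraries were left out. The smallest called interaction was 0.94 in size, and the median over all genes tested was 0.09. In Lpin1+/+ liver 175 genes (1.52%) rose and 23 (0.2%) fell on refeeding at the same threshold, while in Lpin1-/- liver 2046 (17.8%) rose and 336 (2.92%) fell. These counts use the same standard error for a gene in both genotypes, and a difference between counts is no test. The test of the difference is the interaction, which had an unadjusted p under 0.05 for 2082 genes (18.1%), 11.7% above and 6.43% below 0.

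To describe the 147 genes, each was sorted by whether its response passed an unadjusted p of 0.05 in each genotype. That lower bar was passed upwards by 11.5% and downwards by 2.3% of all genes in Lpin1+/+ liver, and by 29.9% and 6.14% in Lpin1-/- liver. By this sorting 97 responses were gained, passing that bar in Lpin1-/- liver only, of which 71 were rises and 26 were falls. Another 34 were inverted, with a response in each genotype and opposite signs: 22 were rises in Lpin1+/+ and falls in Lpin1-/-, and 12 were falls in Lpin1+/+ and rises in Lpin1-/-. The response was lost in Lpin1-/- liver for 9 genes, 8 rises and 1 fall, and for 7 it was a rise in both genotypes and larger in Lpin1-/-. No gene was in a class of smaller responses, and none lacked a response in both. With the adjusted threshold in each genotype instead, 130 were gained, 10 lost and 6 inverted, so most inversions rest on a wild-type response that passed only without adjustment. Of the 147, 16 had an adjusted response in Lpin1+/+ liver and 136 in Lpin1-/- liver.

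**Figure D1:**
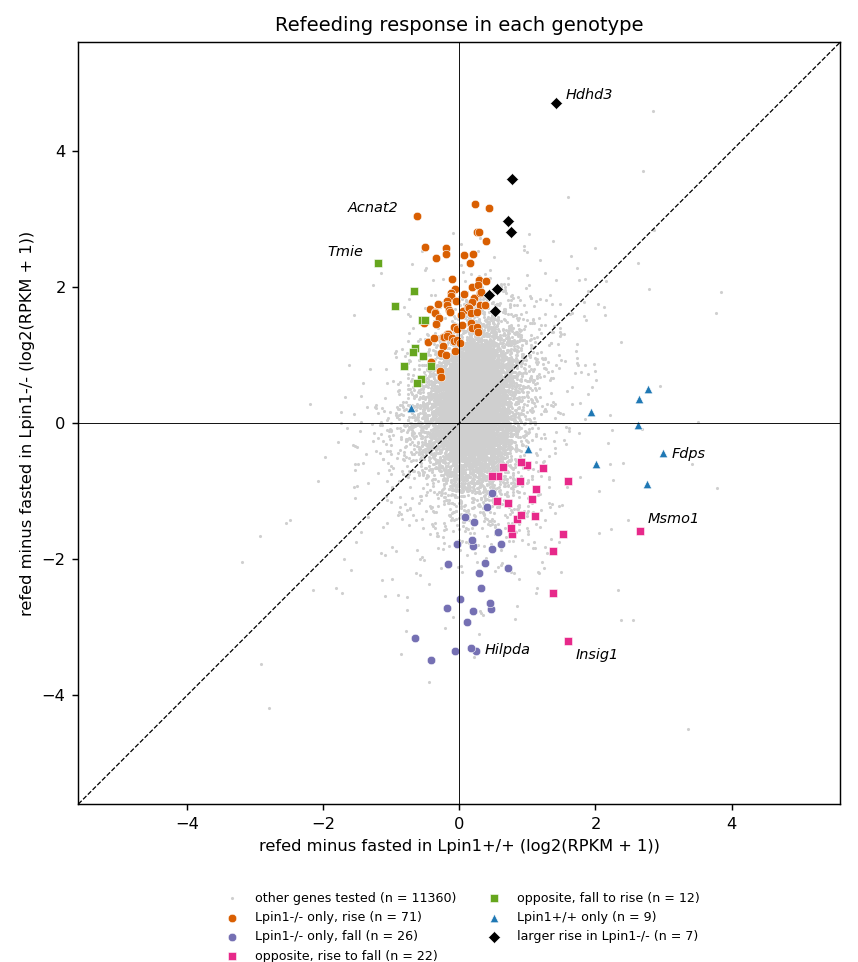
Refeeding response (refed minus fasted, log2(RPKM + 1), mean of 3 mice per group) of each gene tested, with Lpin1+/+ on the horizontal axis and Lpin1-/- on the vertical axis. Coloured points are the 147 genes past the interaction threshold by class, grey points are the other genes, the dashed line marks equal responses, and 97 of the coloured points lie close to the vertical axis as responses gained in Lpin1-/- liver.

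The levels behind these classes show in which state the genotypes stood apart. The fasted and refed genotype differences share their libraries with the interaction, so they are set beside it as a description. For the 71 gained rises the median difference of Lpin1-/- from Lpin1+/+ was -1.24 in the fasted and 0.39 in the refed state, and 66 were called lower in fasted Lpin1-/- liver (background 13.2% lower and 5.63% higher). For the 26 gained falls the median difference was 2.52 in fasted and 0.0026 in refed liver, and 25 were called higher in fasted Lpin1-/- liver. In refed liver 13 of the gained rises were called higher and 3 lower, and 1 gained fall was called higher and 1 lower (background 2.6% higher and 4.07% lower). The 8 lost rises had the other pattern, with a median difference of 0.86 in fasted and -1.91 in refed liver, and 7 of the 8 were called lower in refed Lpin1-/- liver. The 22 genes inverted from rise to fall differed in both states, by a median of 1.15 in fasted and -1.03 in refed liver, and the 12 inverted from fall to rise by -1.004 and 0.73.

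**Figure D2:**
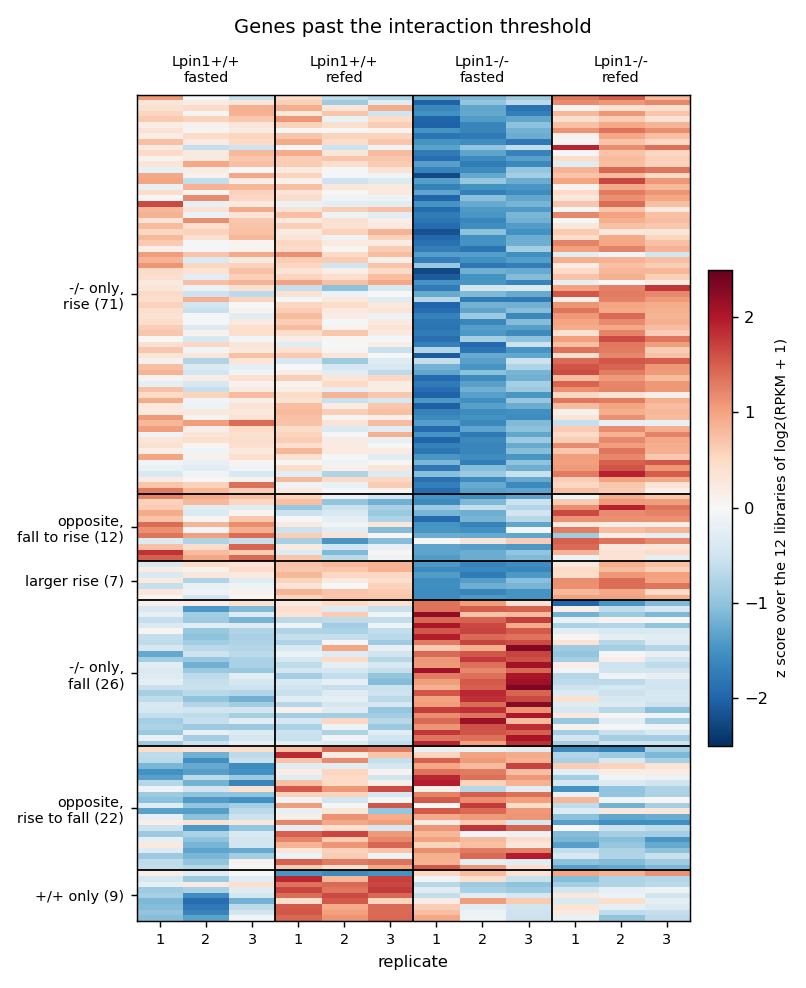
The 147 genes past the interaction threshold (rows, grouped by class with the number of genes) in each of the 12 libraries (columns), coloured by the z score of log2(RPKM + 1) over the 12 libraries. In the classes gained in Lpin1-/-, its 3 fasted libraries lie beyond the other 9 for 67 of 71 rises and 24 of 26 falls, and among the 8 lost rises the 3 refed Lpin1+/+ libraries lie above the others for 7.

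How many genes passed, and in which direction most of them lay, depended on single mice. Leaving out 1 library at a time gave 144, 176 and 41 genes without fasted Lpin1+/+ replicates 1, 2 and 3, and 66, 61 and 55 without the refed ones. Without fasted Lpin1-/- replicates 1, 2 and 3 there were 80, 50 and 191 genes, and without the refed ones 113, 31 and 30. Genes below 0 outnumbered those above 0 without fasted Lpin1+/+ replicate 3 (26 against 15), refed Lpin1+/+ replicates 2 (35 against 26) and 3 (31 against 24), fasted Lpin1-/- replicate 2 (26 against 24) and refed Lpin1-/- replicates 2 (19 against 12) and 3 (17 against 13). Of the 147 genes, 27 were called in all 12 of these fits: 10 of those inverted from rise to fall, 7 gained falls, 6 gained rises, 3 inverted from fall to rise, 1 larger rise and no lost response. When the 4 libraries least like their own group were left out together, a choice made after the correlations were seen, 874 genes passed, 421 above and 453 below 0, and 134 of the 147 were among them. Each gene described below as past the threshold is given with the number of the 12 fits in which it was called.

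Insig1 and 5 enzymes of cholesterol synthesis lost or inverted their response to a meal. These were 5 of the 20 enzymes on the list, all with an interaction below 0, against 0.487% of all genes. The median response of the 20 enzymes was 1.65 in Lpin1+/+ liver, where 9 rose (background 1.52%). In Lpin1-/- liver it was -0.23, and none rose and 1 fell (background 17.8% and 2.92%). The median interaction was -1.84, with 19 of the 20 below 0, against 0.09 over all genes tested. Insig1, which holds SREBP in the endoplasmic reticulum (chromosome 5, chr5:28071363-28078662, plus strand), stood at 20.2, 18.2 and 36.01 RPKM in fasted and 70.99, 58.04 and 98.2 RPKM in refed Lpin1+/+ livers. In Lpin1-/- livers it stood at 172, 113 and 56.4 RPKM fasted and 9.13, 10.1 and 11.7 RPKM refed, so that the fasted and refed livers did not overlap in either genotype and were in opposite order. Its interaction of -4.81 ± 0.53 (SE, adjusted p = 0.00332) was the most negative of the 147. Msmo1, a C4 sterol demethylation enzyme, went from 12.7, 8.70 and 27.3 to 106, 89.7 and 95.1 RPKM in Lpin1+/+ and from 58.5, 19.6 and 18.3 to 8.39, 7.83 and 9.65 RPKM in Lpin1-/- liver, an interaction of -4.23 ± 0.61 (adjusted p = 0.0102). All its refed wild-type values lay above all fasted ones, and all its refed knockout values lay below all fasted ones.

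The other 4 enzymes had a flat or weak response in Lpin1-/- liver. Cyp51, the lanosterol demethylase, went from 4.00, 2.91 and 11.1 to 45.3, 33.5 and 45.2 RPKM in Lpin1+/+ and from 29.1, 10.5 and 6.92 to 10.1, 4.25 and 6.21 RPKM in Lpin1-/- liver (-3.66 ± 0.72, adjusted p = 0.0338). Fdps, which makes farnesyl pyrophosphate, went from 12.3, 6.28 and 19.8 to 121, 75.9 and 107 RPKM and in Lpin1-/- from 59.6, 26.6 and 18.97 to 38.2, 17.01 and 18.03 RPKM (-3.43 ± 0.67, adjusted p = 0.0336). In both genes the fasted and refed Lpin1-/- values overlapped. Mvd, of the mevalonate steps, went from 1.29, 1.45 and 2.78 to 19.3, 14.2 and 20.8 RPKM in Lpin1+/+ and stayed between 1.28 and 3.33 RPKM in all 6 Lpin1-/- livers (-2.28 ± 0.37, adjusted p = 0.0190). Fdft1, squalene synthase, had 31.03, 25.1 and 41.2 RPKM fasted and 81.3, 62.3 and 85.98 refed in Lpin1+/+, and 36.3, 21.6 and 28.05 fasted and 13.5, 18.5 and 21.04 refed in Lpin1-/- liver (-1.88 ± 0.36, adjusted p = 0.0325). Insig1 and Msmo1 were called in all 12 fits without a library. Cyp51 was called in 3, Fdps in 4, Fdft1 in 6 and Mvd in 9. Their adjusted p was highest without refed Lpin1-/- replicate 2, at 0.110 for Cyp51 and Fdps, 0.0958 for Fdft1 and 0.0612 for Mvd. Without refed Lpin1-/- replicate 3 it was 0.101 for Cyp51, 0.103 for Fdps, 0.0708 for Fdft1 and 0.0570 for Mvd. Exons of Fdps overlap Gm43738 on the same strand, which is itself among the lost rises, and those of Cyp51 and Fdft1 overlap genes on the other strand, so their reads may be shared. Sqle and Idi1 had interactions of -4.75 ± 1.28 and -4.03 ± 0.96 that missed the threshold (adjusted p = 0.0956 and 0.0666).

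**Figure D3:**
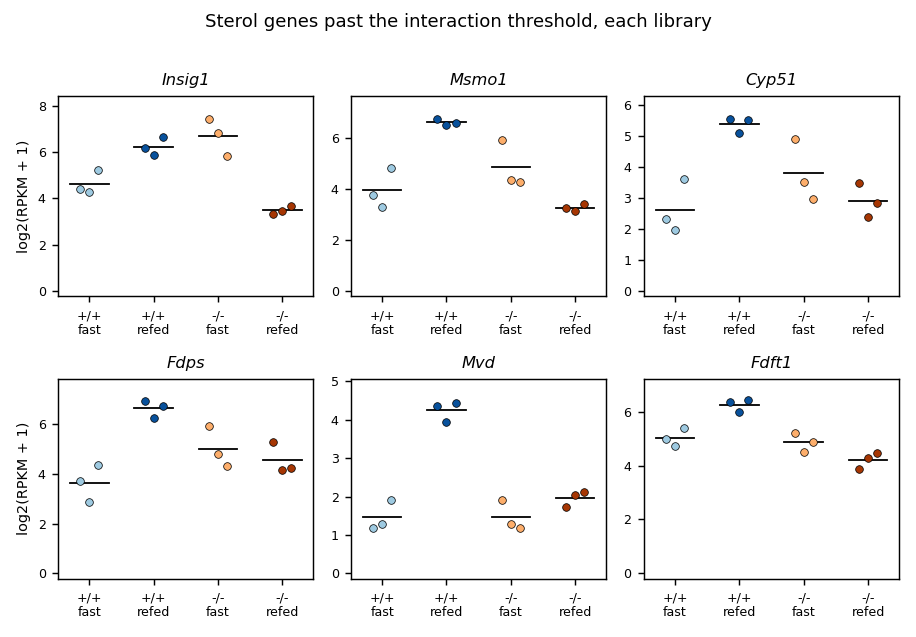
Level of Insig1 and 5 enzymes of cholesterol synthesis past the interaction threshold in each library, as log2(RPKM + 1), with a point for each mouse and a line at the mean of 3. Refed Lpin1+/+ livers are the highest group for all but Insig1, and refed Lpin1-/- livers lie below fasted ones for Insig1, Msmo1 and Fdft1.

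Atf3, Slc20a1, Tra2a and Jund also inverted from rise to fall. Atf3, a stress-induced transcription factor, went from 0.810, 0.466 and 0.858 to 2.53, 5.84 and 2.59 RPKM in Lpin1+/+ and from 7.69, 12.7 and 20.9 to 1.85, 1.06 and 1.44 RPKM in Lpin1-/- liver, an interaction of -3.88 ± 0.48 (adjusted p = 0.00664). Slc20a1, a sodium-phosphate cotransporter, went from 8.47, 3.98 and 4.21 to 12.99, 15.7 and 17.2 RPKM and in Lpin1-/- from 23.2, 25.7 and 24.97 to 6.91, 6.07 and 5.00 RPKM (-3.25 ± 0.34, adjusted p = 0.00258). Tra2a, an SR-related splicing factor, went from 5.64, 3.62 and 4.98 to 12.4, 9.24 and 12.3 RPKM and in Lpin1-/- from 11.1, 10.01 and 8.39 to 3.32, 3.47 and 2.72 RPKM (-2.48 ± 0.28, adjusted p = 0.00379). In each of these the fasted and refed livers were apart in both genotypes, in opposite order. Tra2a was the only one of 61 splicing factors with an interaction, against 1.28% of all genes. At an unadjusted p under 0.05 there were 13 of the 61, against 18.1% of all genes, so both counts lay near the background. Of the 61, 23 rose and 3 fell in Lpin1-/- liver (background 17.8% and 2.92%) and 6 rose in Lpin1+/+ liver (1.52%). Jund, of the AP-1 family, had an interaction of -2.41 ± 0.38 (adjusted p = 0.0157), with 53.4, 30.5 and 40.9 RPKM fasted and 63.9, 95.7 and 56.9 refed in Lpin1+/+ and 147, 225 and 183 fasted and 72.5, 53.4 and 50.4 refed in Lpin1-/- liver. Atf3, Slc20a1 and Tra2a were called in all 12 fits and Jund in 10, with an adjusted p of 0.0595 and 0.0577 without refed Lpin1-/- replicates 2 and 3. Atf3 and Jund were the 2 called genes of 20 immediate early genes, against 0.487% of all genes below 0. The median response of the 20 was 0.22 in Lpin1+/+ liver, where none was called. In Lpin1-/- liver it was -1.40, and 11 fell and none rose (background 2.92% and 17.8%). All 20 had interactions below 0, with a median of -1.41, which for Btg2 and Gadd45b was -3.40 ± 0.79 and -2.27 ± 0.52 (adjusted p = 0.0619 for both).

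A further 5 inverted genes, chosen after their values were seen, are Nucb2, Acsl3, Slc16a6, Adra1b and Adra1a. Nucb2, the precursor of nesfatin, went from 0.851, 0.958 and 1.43 to 5.49, 6.15 and 4.19 RPKM in Lpin1+/+ and from 3.60, 1.88 and 1.76 to 0.687, 0.928 and 0.906 RPKM in Lpin1-/- liver (-2.45 ± 0.32, adjusted p = 0.00758). Acsl3, an acyl-CoA synthetase of lipid droplets, had an interaction of -2.26 ± 0.28 (adjusted p = 0.00664), with 2.60, 1.53 and 2.13 RPKM fasted and 3.27, 5.50 and 4.99 refed in Lpin1+/+ and 5.04, 5.32 and 5.45 fasted and 1.52, 1.24 and 1.29 refed in Lpin1-/- liver. Slc16a6, a monocarboxylate carrier, had 1.51, 1.65 and 1.51 RPKM fasted and 3.91, 4.62 and 3.76 refed in Lpin1+/+, and 6.75, 6.62 and 5.13 fasted and 3.17, 3.88 and 3.89 refed in Lpin1-/- liver (-1.61 ± 0.24, adjusted p = 0.0104). All 3 separated by feeding state in both genotypes and in opposite order. The alpha-1 adrenergic receptors, through which catecholamines reach hepatocytes, inverted in opposite directions. Adra1b had 10.2, 11.97 and 11.2 RPKM fasted and 21.7, 17.8 and 19.1 refed in Lpin1+/+, and 10.6, 14.4 and 6.57 fasted and 3.06, 2.65 and 2.64 refed in Lpin1-/- liver (-2.31 ± 0.33, adjusted p = 0.00923). Adra1a had 1.82, 1.37 and 1.75 RPKM fasted and 1.18, 0.398 and 0.669 refed in Lpin1+/+, and 0.104, 0.157 and 0.211 fasted and 0.654, 0.953 and 0.619 refed in Lpin1-/- liver (1.21 ± 0.25, adjusted p = 0.0431). Nucb2, Acsl3, Slc16a6 and Adra1b were called in all 12 fits, and Adra1a in 2, with adjusted p up to 0.143 without refed Lpin1-/- replicate 2. Fabp4, the fatty acid binding protein of macrophages and fat cells and here on the list of PPARalpha targets, had 10.3, 10.2 and 17.9 RPKM fasted and 26.01, 37.9 and 14.3 refed in Lpin1+/+, and 96.1, 88.3 and 68.5 fasted and 23.6, 37.7 and 37.5 refed in Lpin1-/- liver. Its interaction of -2.26 ± 0.48 (adjusted p = 0.0460) was called in 2 of 12 fits. The summed level of 9 Kupffer cell and macrophage markers was 362 to 992 RPKM in fasted and 115 to 268 RPKM in refed Lpin1-/- liver. In Lpin1+/+ liver these markers summed to 190 to 385 RPKM fasted and 105 to 904 RPKM refed (medians 253 and 174). Their part in the result was not tested.

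Inversions from fall to rise were fewer, and Gk, Flcn and Paics are named among them after their values were seen. Tmie, a membrane protein known from the inner ear, had 11.4, 8.60 and 7.28 RPKM fasted and 6.08, 2.96 and 1.95 refed in Lpin1+/+, and 0.253, 0.200 and 0.441 fasted and 3.04, 8.26 and 6.75 refed in Lpin1-/- liver (3.55 ± 0.50, adjusted p = 0.00923). Its exons overlap Als2cl on the other strand. Gk, glycerol kinase, which feeds glycerol into glucose or triglyceride, was tight within groups, with 40.6, 31.3 and 36.2 RPKM fasted and 23.7, 20.3 and 23.8 refed in Lpin1+/+, and 10.1, 9.24 and 11.1 fasted and 23.4, 22.5 and 22.5 refed in Lpin1-/- liver (1.75 ± 0.22, adjusted p = 0.00664). The refed values of the 2 genotypes were within 20.3 to 23.8 RPKM, and the fasted values lay on either side of them. Flcn, a regulator of nutrient sensing by mTORC1, had 14.01, 8.64 and 12.8 RPKM fasted and 7.12, 7.89 and 5.64 refed in Lpin1+/+, and 4.79, 4.65 and 8.79 fasted and 14.8, 12.1 and 12.5 refed in Lpin1-/- liver (1.73 ± 0.35, adjusted p = 0.0399). Paics, an enzyme of purine synthesis, was higher in every Lpin1-/- than in every Lpin1+/+ liver, with 103, 77.3 and 87.7 RPKM fasted and 73.8, 48.7 and 63.5 refed in Lpin1+/+, and 133, 162 and 198 fasted and 354, 323 and 293 refed in Lpin1-/- (1.52 ± 0.30, adjusted p = 0.0338). Fmo4, a flavin monooxygenase, Shf, an SH2 adaptor, and Tex12, a protein of the synaptonemal complex, had interactions of 2.06 ± 0.34, 2.02 ± 0.32 and 2.68 ± 0.54 (adjusted p = 0.0190, 0.0157 and 0.0398). Tmie and Gk were called in all 12 fits, Shf in 9, Fmo4 in 7, and Flcn, Paics and Tex12 in 2 each. The last 3 had adjusted p of 0.110, 0.110 and 0.114 without refed Lpin1-/- replicate 2. The wild-type fall of none of the 12 passed the adjusted threshold.

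All but 1 of the 26 gained falls were called higher in fasted Lpin1-/- liver. Hilpda, an inhibitor of the triglyceride lipase ATGL on lipid droplets (chromosome 6, chr6:29272488-29275446, plus strand), had 6.66, 10.05 and 14.2 RPKM in fasted and 14.4, 12.4 and 9.21 in refed Lpin1+/+ livers. It stood at 142, 56.4 and 132 RPKM in fasted Lpin1-/- livers and at 7.23, 10.4 and 10.1 in refed ones, so the 3 fasted Lpin1-/- livers lay above the other 9 libraries, which overlapped. The interaction was -3.58 ± 0.50 (adjusted p = 0.00915). Sesn1, a stress-inducible inhibitor of mTORC1, showed the same order, with 23.6, 24.5 and 48.3 RPKM in fasted and 3.13, 1.82 and 1.75 in refed Lpin1-/- livers against 4.46, 1.81 and 3.20 and 2.76, 5.07 and 3.00 in Lpin1+/+ (-3.47 ± 0.47, adjusted p = 0.00913). Slc25a33, a mitochondrial carrier of pyrimidine nucleotides, had 366, 297 and 275 RPKM in fasted and 22.6, 30.8 and 37.3 in refed Lpin1-/- livers against 20.6, 45.8 and 38.6 and 31.7, 24.2 and 41.5 in Lpin1+/+ (-3.28 ± 0.43, adjusted p = 0.00758). Ppp1r3g, which brings the phosphatase to glycogen, had 34.9, 47.7 and 149 RPKM in fasted and 6.88, 4.41 and 3.34 in refed Lpin1-/- livers and under 1 RPKM in all 6 Lpin1+/+ livers (-3.07 ± 0.62, adjusted p = 0.0372). Unlike the 3 genes before it, Ppp1r3g remained above every wild-type library after refeeding. Gdf15, a secreted stress hormone, had 23.4, 44.8 and 13.2 RPKM in fasted and 2.22, 4.81 and 2.49 in refed Lpin1-/- livers against 2.51, 3.39 and 4.74 and 4.04, 10.3 and 2.98 (-3.09 ± 0.66, adjusted p = 0.0460). It was the called member of 18 genes on the list of the integrated stress response, against 0.487% of all genes below 0. That list did not hold Atf3, which was counted with the immediate early genes. Hilpda, Sesn1 and Slc25a33 were called in all 12 fits, Ppp1r3g in 3 and Gdf15 in 1, with adjusted p up to 0.110 without refed Lpin1-/- replicate 2 and 0.128 without refed Lpin1-/- replicate 3.

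Txnip, Trim63, H3f3b and Hist1h1c are gained falls named after their values were seen. Txnip, an arrestin that limits glucose uptake, had 181, 196 and 418 RPKM in fasted and 16.9, 36 and 31.2 in refed Lpin1-/- livers against 27.5, 18.1 and 28.7 and 14.3, 19.4 and 12.2 in Lpin1+/+ (-2.49 ± 0.51, adjusted p = 0.0398). Trim63, a ubiquitin ligase best known from wasting muscle, had 2.63, 5.07 and 11.8 RPKM in fasted Lpin1-/- livers and at most 0.131 RPKM in each of the other 9 (-2.60 ± 0.47, adjusted p = 0.0296). It entered the test only through the group where it is high, since its other 3 groups average under 0.5 RPKM, so that some difference was built in, as for 2 other genes of the 147, Cxcl2 and Hist1h1e. H3f3b, which encodes the histone variant H3.3, had 1372, 1761 and 1246 RPKM in fasted and 288, 246 and 272 in refed Lpin1-/- livers against 192, 219 and 209 and 239, 292 and 247 (-2.75 ± 0.26, adjusted p = 0.00207). Hist1h1c, a linker histone, had 216, 232 and 125 RPKM in fasted and 31.4, 23.9 and 17.3 in refed Lpin1-/- livers against 30.4, 28.5 and 29.7 and 49.9, 34.2 and 18.7 (-3.02 ± 0.49, adjusted p = 0.0174). In all 4 genes the fasted Lpin1-/- livers were above the rest. Both histone genes have close copies, so their values are uncertain where the counting split reads. H3f3b was called in all 12 fits, Hist1h1c in 8, Trim63 in 4 and Txnip in 2, with adjusted p up to 0.0595, 0.0945 and 0.0932 when a refed Lpin1-/- library was left out. Amica1, an adhesion molecule of leukocytes named by the rule, had 14.8, 27.7 and 38.7 RPKM in fasted and 3.47, 2.78 and 2.60 in refed Lpin1-/- livers against 0.524, 0.326 and 0.268 and 0.512, 2.48 and 0.268 in Lpin1+/+ (-3.20 ± 0.54, adjusted p = 0.0216, called in 8 of 12 fits). Beside it, the summed level of 7 lymphocyte markers was 2.52 to 7.48 RPKM in fasted and 0.922 to 1.97 in refed Lpin1-/- liver, and that of 5 neutrophil markers 55.0 to 176 and 28.9 to 57.7 RPKM. In fasted and refed Lpin1+/+ liver the lymphocyte markers summed to 2.14 to 5.16 and 0.951 to 16.5 RPKM. The neutrophil markers summed there to 9.30 to 128 and 4.71 to 99.0 RPKM, so both sets of markers overlapped between the genotypes. Their part in the result was not tested.

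**Figure D4:**
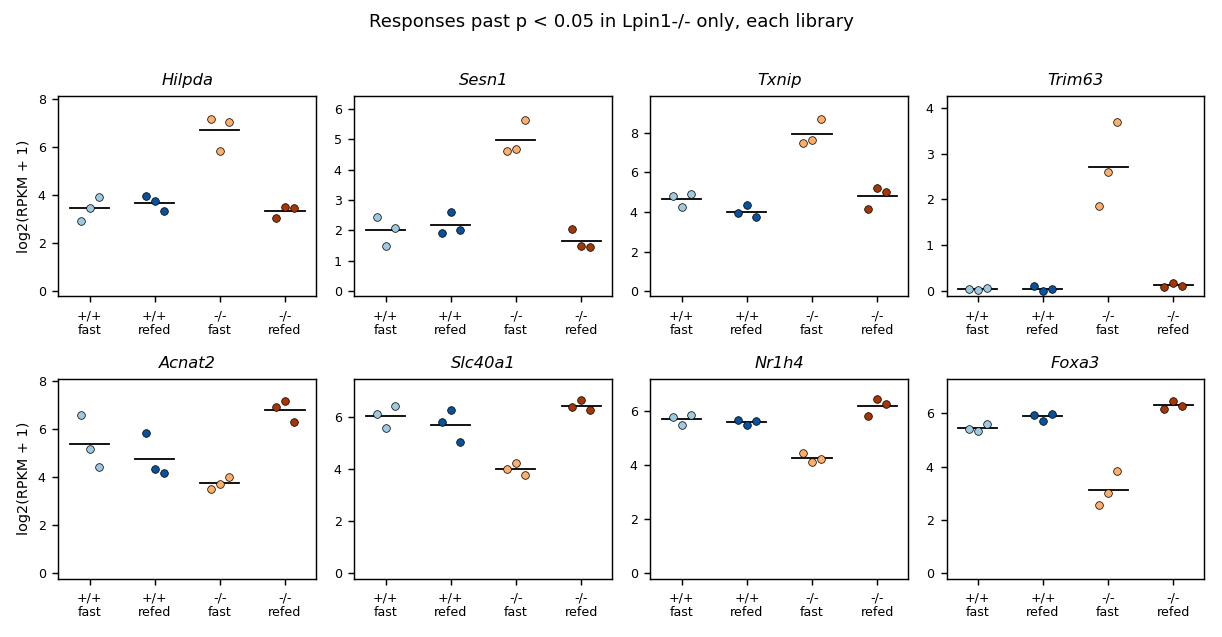
Level of 4 gained falls (top row) and 4 gained rises (bottom row) in each library, as log2(RPKM + 1), with a point for each mouse and a line at the mean of 3. The 3 fasted Lpin1-/- livers lie above the other 9 for Hilpda, Sesn1, Txnip and Trim63 and below them for Acnat2, Slc40a1, Nr1h4 and Foxa3.

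The promoters of these genes were searched for short motifs, to show what sequence lies before genes whose fasted level differed. RefSeq promoters (GRCm38.p6, 250 bases before to 50 after the start) matched 107 of the 147 genes and 8752 of all tested. The FoxO element GTAAACA, on either strand, was in 3 of 19 gained falls with a promoter (15.8%), in 1 of 50 gained rises (2.0%) and in 3.29% of all genes. Promoter windows per gene averaged 1.526 in gained falls, 1.12 in gained rises and 1.275 in all genes, so the sequence searched differed in length. Other motifs were searched as well. The E-box CACGTG was in 4 of 19 gained falls (21.1%), 7 of 50 gained rises and 11.9% of all genes. The amino acid response element core TGATGNAA was in 1 of 19 gained falls, 4 of 50 gained rises (8%) and 2.77% of all genes. Differences between these shares were not tested. The FoxO element is in capitals in Txnip and Trim63, given with the genomic interval and the strand of the gene. Both genes were chosen after their values were seen, and Trim63 entered the test only through the group where it is high. Atf3 held the amino acid response element core TGATGNAA, which is in 2.77% of all genes, here read on the opposite strand, and Tra2a and Flcn held the cAMP response element TGACGTCA (3.54% of all genes).
Txnip, chr3:96557816-96557862 (plus): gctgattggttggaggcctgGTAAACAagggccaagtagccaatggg
Trim63, chr4:134314906-134314952 (plus): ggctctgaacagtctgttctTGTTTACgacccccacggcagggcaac
Atf3, chr1:191183416-191183463 (minus): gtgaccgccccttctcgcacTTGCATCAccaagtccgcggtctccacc
Tra2a, chr6:49264053-49264099 (minus): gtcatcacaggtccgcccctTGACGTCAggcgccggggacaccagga
Flcn, chr11:59810061-59810108 (minus): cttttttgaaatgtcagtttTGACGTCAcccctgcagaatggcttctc
The matches are descriptions of letters, not of bound factors. Of the 6 sterol genes described, 4 had a promoter in the table, and none of these 4 windows held the sterol response element TCACNCCAC (1.49% of all genes).

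Most gained rises, 66 of 71, were genes called lower in fasted Lpin1-/- liver, and the other 5 differed in refed liver only. Nr1h4, the bile acid receptor FXR, had 54.3, 44.4 and 57.9 RPKM fasted and 50.5, 43.6 and 48.8 refed in Lpin1+/+ livers, and 20.8, 16.5 and 17.9 fasted and 55.3, 86.1 and 77.3 refed in Lpin1-/- livers (2.04 ± 0.27, adjusted p = 0.00794). Baat, which conjugates bile acids to taurine and glycine, had 182, 217 and 191 RPKM fasted and 151, 171 and 136 refed in Lpin1+/+, and 116, 77.1 and 77.3 fasted and 164, 251 and 233 refed in Lpin1-/- livers (1.62 ± 0.31, adjusted p = 0.0334). They were the 2 called members of 18 bile acid genes, against 0.791% of all genes above 0, and the list had a median interaction of 0.40. The bile acid transporter Slc10a1 and the synthesis enzyme Cyp7a1 had values of 1.81 ± 0.74 and 3.29 ± 1.05 that missed the threshold (adjusted p = 0.228 and 0.141). Acnat2, an acyl transferase of peroxisomes, had the largest interaction among the gained rises: 94.6, 35 and 20.4 RPKM fasted and 55.01, 19.01 and 16.8 refed in Lpin1+/+, and 10.4, 11.95 and 14.98 fasted and 118, 143 and 75.9 refed in Lpin1-/- livers (3.67 ± 0.75, adjusted p = 0.0399). Its neighbour and close copy Acnat1 had 24.6, 14.3 and 19.03 and 29.04, 18.5 and 23.3 RPKM in Lpin1+/+, and 2.03, 1.85 and 1.29 and 12.4, 23.7 and 19.5 in Lpin1-/- livers (2.52 ± 0.39, adjusted p = 0.0136), and reads may be split between the pair. Nr1h4 was called in all 12 fits, Acnat1 in 11, and Baat and Acnat2 in 3, with adjusted p of 0.110 and 0.126 without refed Lpin1-/- replicate 2.

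Slc40a1, Slc30a10 and Paqr9 were in the same class, and so were Foxa3 and Gpd1, which were chosen after their values were seen, as was Acnat1. Slc40a1, ferroportin, through which iron leaves cells, had 68.6, 46.9 and 86.9 RPKM fasted and 55.9, 76.3 and 32.1 refed in Lpin1+/+, and 15.1, 17.9 and 12.97 fasted and 83.3, 101 and 76.5 refed in Lpin1-/- livers (2.77 ± 0.43, adjusted p = 0.0157). Slc30a10, a manganese exporter, had 12.03, 10.9 and 12.03 and 15.2, 4.26 and 7.25 RPKM in Lpin1+/+, and 1.23, 3.89 and 5.32 and 24.1, 22.5 and 24.6 in Lpin1-/- livers (3.10 ± 0.58, adjusted p = 0.0317). Paqr9, of the progestin and adipoQ receptor family, had 74.5, 82.7 and 135 and 141, 68.04 and 142 RPKM in Lpin1+/+, and 6.12, 9.27 and 4.42 and 50.5, 74.8 and 80.8 in Lpin1-/- livers (2.98 ± 0.49, adjusted p = 0.0190). For Slc40a1 and Paqr9 the fasted Lpin1-/- livers lay below all others, and for Slc30a10 they overlapped the refed wild-type livers. Foxa3, a forkhead factor of hepatocyte identity, had 41.9, 38.9 and 47.3 and 60.7, 51.5 and 62.5 RPKM in Lpin1+/+, and 4.85, 7.12 and 13.3 and 69.8, 86.1 and 77.4 in Lpin1-/- livers (2.72 ± 0.38, adjusted p = 0.00915). Gpd1, which links glycolysis to glycerol 3-phosphate, had 130, 103 and 172 and 191, 110 and 167 RPKM in Lpin1+/+, and 17.3, 25.8 and 18.9 and 80.00, 156 and 134 in Lpin1-/- livers (2.29 ± 0.42, adjusted p = 0.0316). Foxa3 was called in all 12 fits, Slc40a1 in 11, Paqr9 in 9, Gpd1 in 5 and Slc30a10 in 4, and without refed Lpin1-/- replicate 2 the adjusted p of the last 4 were 0.0595, 0.0749, 0.101 and 0.0958.

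Of the other gained rises chosen after their values were seen, Zfp207, a zinc finger protein of spindle assembly, had the smallest adjusted p of all genes (0.00101). It had 34.3, 28.2 and 31.4 RPKM fasted and 26.9, 26.7 and 27.8 refed in Lpin1+/+, and 9.64, 8.68 and 12.1 fasted and 57.1, 66.7 and 58.8 refed in Lpin1-/- livers, an interaction of 2.68 ± 0.23. The refed Lpin1-/- livers were above, and the fasted ones below, all 6 wild-type livers. S1pr1, a receptor for sphingosine 1-phosphate, had 19.4, 22.04 and 33.1 and 30.5, 32.9 and 32.5 RPKM in Lpin1+/+, and 2.92, 4.10 and 5.19 and 26.7, 35.7 and 30.5 in Lpin1-/- livers (2.29 ± 0.32, adjusted p = 0.00923). The interferon regulatory factors Irf3 and Irf9 had interactions of 1.36 ± 0.25 and 1.83 ± 0.36 (adjusted p = 0.0301 and 0.0338), with 11.2, 11.9 and 12.3 and 2.25, 5.70 and 3.94 RPKM in fasted Lpin1-/- livers and at least 31.2 and 13.7 RPKM in all other livers. Exons of both overlap another gene, that of Irf9 on the same strand. Zfp207 and S1pr1 were called in all 12 fits, Irf3 in 4 and Irf9 in 5, with adjusted p of 0.101 and 0.101 without refed Lpin1-/- replicate 2.

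Of the 7 larger rises, Hdhd3, a dehalogenase-like hydrolase, had the widest span, with 18.7, 70.2 and 58.2 RPKM fasted and 105, 120 and 126 refed in Lpin1+/+, and 3.19, 1.97 and 2.48 fasted and 52.3, 135 and 105 refed in Lpin1-/- livers (3.28 ± 0.63, adjusted p = 0.0334). Anks4b, a scaffold protein of the cell apex, had 14.1, 12.3 and 19.8 and 24.4, 25.2 and 30.4 RPKM in Lpin1+/+, and 1.06, 1.01 and 0.910 and 19.8, 27.2 and 22.5 in Lpin1-/- livers (2.81 ± 0.28, adjusted p = 0.00208). In both the refed levels of the genotypes overlapped and the fasted levels did not. Fubp1, a single-strand DNA binding protein, and Ufsp1, a protease of the UFM1 system, had interactions of 2.04 ± 0.39 and 1.45 ± 0.25 (adjusted p = 0.0325 and 0.0252). Anks4b was called in all 12 fits, Ufsp1 in 6, Hdhd3 in 4 and Fubp1 in 3, with adjusted p up to 0.0958, 0.110 and 0.110 without refed Lpin1-/- replicate 2. None of the 7 wild-type rises passed the adjusted threshold.

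Outside the sterol genes, the lost rises included Actg1 and, named after its values were seen, Nrep. Actg1, cytoplasmic gamma-actin, had 15.2, 9.03 and 14.7 RPKM fasted and 42.1, 83.3 and 44.5 refed in Lpin1+/+, and 35.5, 61.2 and 47.8 fasted and 25.2, 41.9 and 27.4 refed in Lpin1-/- livers (-2.60 ± 0.45, adjusted p = 0.0230, called in 9 of 12 fits), and shares sequence with the other actins. Nrep, a small neuronal regeneration-related protein, had 2.03, 3.66 and 4.67 RPKM fasted and 13.4, 14.6 and 19.03 refed in Lpin1+/+, and under 1 RPKM in all 6 Lpin1-/- livers (-1.78 ± 0.34, adjusted p = 0.0336, called in 4 of 12). The 1 lost fall was Tmed5, a cargo receptor of the early secretory pathway. It had 41.9, 36.6 and 40.2 RPKM fasted and 24.1, 23.03 and 23.8 refed in Lpin1+/+, where the groups did not overlap, and 47.8, 52.1 and 44.9 fasted and 56.1, 53.9 and 58.99 refed in Lpin1-/- livers (0.94 ± 0.19, adjusted p = 0.0415). The call of Tmed5 held in 1 of the 12 fits, and the adjusted p reached 0.137 without refed Lpin1-/- replicate 3.

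Most gene lists held no gene with an interaction, and a p that misses the threshold does not show equal responses. Of all genes tested 1.28% had an interaction, so a short list may hold none at that share. Over all genes tested 17.8% rose and 2.92% fell in Lpin1-/- liver, and 1.52% rose and 0.2% fell in Lpin1+/+ liver. An unadjusted interaction p under 0.05 was passed by 18.1%. Of 32 endoplasmic reticulum chaperones and folding factors 17 rose in Lpin1+/+ and 13 rose and 1 fell in Lpin1-/- liver, none with an interaction. Their median response was 1.19 in Lpin1+/+ and 0.51 in Lpin1-/- liver, 28 of 32 interactions were below 0, and 10 of these had an unadjusted p under 0.05. Hyou1, an endoplasmic reticulum chaperone, rose by 2.86 and 2.84 in the 2 genotypes, while Pdia6, a disulfide isomerase, went from 96.9, 171 and 172 to 370, 442 and 462 RPKM in Lpin1+/+ and from 190, 203 and 118 to 133, 172 and 176 in Lpin1-/- liver (-1.63 ± 0.39, adjusted p = 0.0666). The endoplasmic reticulum stress response element, CCAAT and CCACG separated by 9 bases, was in 9 of the 25 promoters of this list (36%) and in 0.171% of all genes, and the stretch in Pdia6 is shown with those letters and the bases between them in capitals.
Pdia6, chr12:17266471-17266529 (plus): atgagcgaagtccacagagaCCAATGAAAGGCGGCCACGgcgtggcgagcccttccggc
Among 22 lipogenic genes 8 rose and 1 fell in Lpin1-/- liver and 1 rose in Lpin1+/+ liver, with a median interaction of 0.22 and 6 genes at an unadjusted p under 0.05 (5 above 0). Tkfc, a kinase of fructose metabolism, was nearest the threshold, with 240, 113 and 123 RPKM fasted and 164, 119 and 141 refed in Lpin1+/+, and 45.5, 33.8 and 28.8 fasted and 114, 452 and 310 refed in Lpin1-/- livers (2.89 ± 0.63, adjusted p = 0.0513). Pklr, the liver pyruvate kinase, came next (2.61 ± 0.59, adjusted p = 0.0589), and is also on the list of 21 genes of glycolysis and gluconeogenesis, of which 6 rose in Lpin1-/- and 1 in Lpin1+/+ liver with a median interaction of 0.66.

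Of the lists of fasting metabolism, some had a median interaction above 0 and some below. The 42 genes of amino acid catabolism and the urea cycle had a median response of -0.34 in Lpin1+/+ and 0.32 in Lpin1-/- liver and a median interaction of 0.77, with 34 above 0 and 16 at an unadjusted p under 0.05, all above 0. In this list 5 rose and 1 fell in Lpin1-/- liver (background 17.8% and 2.92%), and none was called in Lpin1+/+ liver (1.52% and 0.2%). The gene with the largest t was Nags, which makes the activator of the urea cycle (0.97 ± 0.23, adjusted p = 0.0619). The median interaction was 0.40 for 22 genes of fatty acid oxidation and ketogenesis, led by Slc25a20, the carnitine carrier (1.32 ± 0.33, adjusted p = 0.0699). It was 0.45 for 28 other PPARalpha targets, whose called gene, Fabp4, lay below 0 (background 0.487%). The 23 genes driven by FoxO and glucocorticoids leaned the other way, with a median of -0.41. Of these, 7 fell in Lpin1-/- and 2 in Lpin1+/+ liver (background 2.92% and 0.2%). Sesn1 was their called gene, against 0.487% of all genes below 0, while Ddit4 and Pdk4 had interactions of -3.35 ± 1.22 and -1.95 ± 0.51 (adjusted p = 0.187 and 0.0851). The 21 clock genes had a median of -0.33. Of these, 5 rose and 2 fell in Lpin1-/- liver (background 17.8% and 2.92%), and 1 rose in Lpin1+/+ liver (1.52%). Ciart, a clock repressor, had 1.03, 0.351 and 0.310 RPKM fasted and 1.36, 1.96 and 9.67 refed in Lpin1+/+, and 25.4, 41.7 and 15.4 fasted and 15, 10.2 and 7.28 refed in Lpin1-/- livers (-2.67 ± 0.74, adjusted p = 0.102). The 21 heat shock genes had a median of -0.02, with Dnajb4 at 1.34 ± 0.31 (adjusted p = 0.0619), and 28 genes of ribosome biogenesis 0.24, with Nop2 at 1.01 ± 0.33 (adjusted p = 0.142). At an unadjusted p under 0.05, passed by 18.1% of all genes, there were 5 heat shock and 5 ribosome biogenesis genes, 8 of the clock, 3 of fatty acid oxidation and 6 of glycolysis and gluconeogenesis. In the heat shock and ribosome lists 7 and 13 genes rose in Lpin1-/- liver (background 17.8%) and 0 and 4 in Lpin1+/+ liver (background 1.52%).

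**Figure D5:**
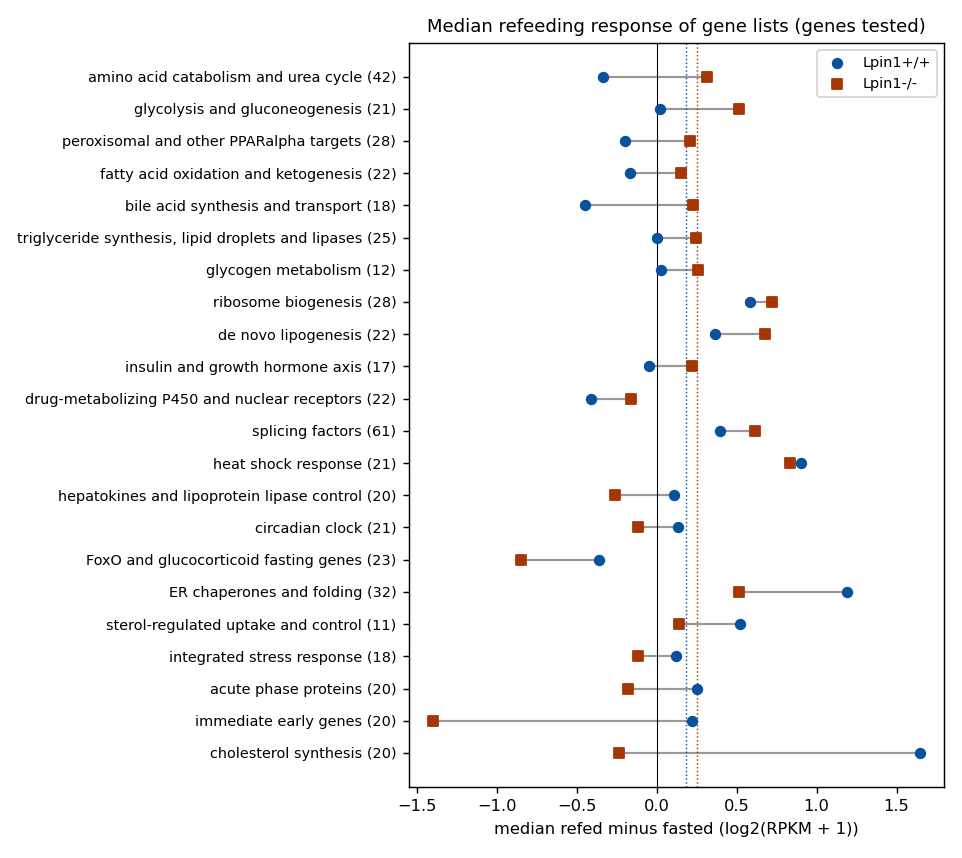
Median refed minus fasted difference, in log2(RPKM + 1), of each gene list in Lpin1+/+ (circles) and Lpin1-/- (squares), with the number of genes tested in brackets and lists ordered by their median interaction. Dotted lines mark the medians of all genes tested, 0.19 in Lpin1+/+ and 0.25 in Lpin1-/-, and cholesterol synthesis and the immediate early genes show the widest gaps between the genotypes.

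The remaining lists held at most 1 called gene each, where 1.28% of all genes tested were called. Their median interactions were 0.29 for 25 genes of triglyceride synthesis and lipid droplets, 0.28 for 12 of glycogen metabolism, 0.19 for 17 of the insulin and growth hormone axis, 0.13 for 22 drug-metabolizing P450s and nuclear receptors, 0.11 for the 61 splicing factors, -0.19 for 20 secreted hepatokines, -0.53 for 18 genes of the integrated stress response and -0.64 for 20 acute phase proteins. The genes with the largest t in those without a call were Mgll, a monoglyceride lipase (2.17 ± 0.66), Akt2, an insulin-signalling kinase (0.63 ± 0.34), Cyp26a1, which breaks down retinoic acid (-2.41 ± 0.53), and Saa4, a serum amyloid (-1.51 ± 0.55). Their adjusted p were 0.125, 0.350, 0.0555 and 0.188. At an unadjusted p under 0.05, passed by 18.1% of all genes, these 4 lists held 2, 0, 3 and 3 genes.

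None of 52 cell type markers passed the interaction threshold in limma, hepatocyte markers included, against 1.28% of all genes. At an unadjusted p of 0.05 there were 5, all below 0: 3 of stellate cells and 2 of cholangiocytes. That bar was passed by 18.1% of all genes, and below 0 by 6.43%. The 8 hepatocyte markers, which sum to between 34232 and 77693 RPKM in the 12 livers, had a median interaction of 0.66. The median was -1.78 for the 9 Kupffer cell and macrophage markers, all below 0, -1.27 for 5 of cholangiocytes, -0.89 for 4 each of lymphocytes and neutrophils, -0.58 for 6 of erythroid cells, -0.37 for 8 of stellate cells and -0.25 for 7 of endothelial cells. The Kupffer markers summed to 190 to 385 RPKM in fasted and 105 to 904 RPKM in refed Lpin1+/+ livers. In fasted and refed Lpin1-/- livers they summed to 362 to 992 and 115 to 268 RPKM. Of the 9, 1 marker, Clec4f, was called down on refeeding in Lpin1-/- liver (background 2.92%). In these bulk samples fewer cells of a type and less RNA per cell cannot be told apart. The 5 adipocyte markers summed to at most 0.321 RPKM in any liver.

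The 147 genes were spread over the genome. Of the 143 with a position in GENCODE M21 (GRCm38), 4 lay on chromosome 12, which carries Lpin1 (2.80%, against 3.48% of genes tested): Cpsf2, Wdr20, Ifrd1 and Tgfb3. The median summed exon length was 2976 bases for gained falls, 4099.5 for gained rises and 4247 for all genes tested. Exons of 35 of the 147 overlapped another listed gene, 8 of them a gene on the same strand. Besides those given above, these include Acsl3, which overlaps Utp14b on the same strand, and Jund, Paics, Slc16a6 and Tmed5, which overlap genes on the other strand, so their reads may be shared.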

How the data were processed

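Liver RNA of 12 mice (3 per group) had been sequenced as paired stranded libraries. Per the study's methods and the submitters' processing notes, the authors aligned reads with HISAT2 (2.0.5) to GRCm38, assigned them to genes with HTSeq (0.6.0, with a strand setting not given in the sources used here) and deposited RPKM values. Counts and depths are not given with them, and RPKM is scaled to the library total, so a rise of abundant genes lowers all others. From the RPKM values, log2(RPKM + 1) was computed for genes averaging 0.5 RPKM or more and fitted over the 4 groups in limma (3.58.1, R 4.3.3) with a trend in the variance, and the interaction and its component contrasts were adjusted by Benjamini-Hochberg over 11507 genes with a threshold of 0.05. A fold on this scale understates the change of low genes. The study's own test was run on counts, which are not used here, so limma on RPKM stands in for it. With 3 mice per group the spread between mice limits precision. Per the study's methods, replicates were spread over sequencing lanes and every sample was in more than 1 pool, with no lane given for each mouse. No source says which mice share a litter or were prepared together, so p-values measure the spread between these samples. Members, gene lists, motifs and tests were chosen with earlier results of these data known. Genes were named by rule (Lpin1, the 4 largest interactions of each class and direction past the threshold, all called list members and the member with the largest t of each list without a call), and 20 genes were added after their values were seen. Outside the rule and these additions, values are also given for list members that missed the threshold. These are Sqle, Idi1, Btg2, Gadd45b, Slc10a1, Cyp7a1, Ddit4, Pdk4 and Hyou1. Not every gene the rule names is reported here. The fit was tested on simulated data. Alternatives were a pseudocount of 0.1, no minimum or 5 RPKM, rescaled libraries, a replicate block, array weights, a robust fit, other bars for the classes, each library left out in turn and, chosen after seeing the data, 4 libraries left out together. Positions are from GENCODE M21 and promoters from RefSeq, and older gene symbols were not matched. Exon tables of the series were not used. Files were read with pandas (2.3.3) and numpy (2.4.6) in Python (3.11.15), and plots were drawn with matplotlib (3.10.9).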

Additional observations from a re-analysis of the deposited data

Results flagged for a closer look

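The 147 genes past the interaction threshold are listed because their response to refeeding differed between the genotypes by the interaction term itself, and the named ones are given with their interaction on log2(RPKM + 1). Gained falls were Hilpda (-3.58), Sesn1 (-3.47), Slc25a33 (-3.28), Amica1 (-3.20), Gdf15 (-3.09), Ppp1r3g (-3.07), H3f3b (-2.75), Txnip (-2.49), Trim63 (-2.60) and Hist1h1c (-3.02). Gained rises were Acnat2 (3.67), Slc30a10 (3.10), Paqr9 (2.98), Slc40a1 (2.77), Nr1h4 (2.04), Baat (1.62), Foxa3 (2.72), Gpd1 (2.29), Zfp207 (2.68), S1pr1 (2.29), Irf3 (1.36), Irf9 (1.83) and Acnat1 (2.52). Inverted from fall to rise were Tmie (3.55), Tex12 (2.68), Fmo4 (2.06), Shf (2.02), Gk (1.75), Adra1a (1.21), Paics (1.52) and Flcn (1.73). Inverted from rise to fall were Insig1 (-4.81), Msmo1 (-4.23), Atf3 (-3.88), Slc20a1 (-3.25), Fdft1 (-1.88), Fabp4 (-2.26), Tra2a (-2.48), Jund (-2.41), Nucb2 (-2.45), Adra1b (-2.31), Acsl3 (-2.26) and Slc16a6 (-1.61). Larger rises were Hdhd3 (3.28), Anks4b (2.81), Fubp1 (2.04) and Ufsp1 (1.45). The lost fall was Tmed5 (0.94). Lost rises were Cyp51 (-3.66), Fdps (-3.43), Actg1 (-2.60), Mvd (-2.28) and Nrep (-1.78). Groups of 3 mice were too small for a test of single outlying values of a gene.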

How the results depend on the processing

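Of 53 named genes past the threshold, 31 stayed past it with no minimum RPKM, where 18696 genes are tested, 38 with the replicate block, 51 with a pseudocount of 0.1 and 50 with rescaled libraries, 41 of the 42 tested at a minimum of 5 RPKM, and all 53 with array weights and in the robust fit. With 1 library left out, 230 of their 636 values no longer passed, and 4 of the 53 did not without the 4 libraries least like their group, a setting chosen after the data were seen. None of the 53 changed sign in these settings. Of the 13 named genes not past the threshold, 12 passed it with array weights, so passing in that setting does not set the 53 apart. The causes were not tested.

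The 147 genes with an interaction became 83 with no minimum, 306 with rescaled libraries, 81 with the replicate block (40 above and 41 below 0), 4190 with array weights and 874 without the 4 libraries least like their group. Rescaling moved the median of all genes from 0.09 to -0.02 and the share of calls above 0 from 61.9% to 55.6%. The estimate of the array weights stopped before its tolerance was reached, and the weights ran from 0.138 to 208. Gained responses (97) became 46 with no minimum, 209 rescaled, 46 with the block, 2065 with array weights and 464 without 4 libraries. Inverted ones (34) became 69 rescaled, 22 with the block, 728 with array weights, 239 without 4 libraries, 6 where each response had to pass an adjusted p and 8 where it had to reach 1. Lost ones (9) became 4 with no minimum, 16 at 5 RPKM, 782 with array weights and 109 without 4 libraries. Larger ones (7) became 11 with a pseudocount of 0.1, 14 rescaled, 513 with array weights, 53 without 4 libraries, 0 by the adjusted p and 1 by a response of 1. The 198 refeeding calls in Lpin1+/+ became 76 rescaled, 93 with the block, 4015 with array weights and 1276 without 4 libraries. With array weights there were 6113 refeeding calls in Lpin1-/- (2382), 7458 genotype calls in fasted (2168) and 3327 in refed liver (767), and without 4 libraries 3399 in fasted and 1382 in refed liver.

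Over the 12 fits that each left out 1 library there were 30 to 191 interactions, 23 to 229 refeeding calls in Lpin1+/+, 1122 to 3108 in Lpin1-/-, 1037 to 2313 genotype calls in fasted and 242 to 1046 in refed liver. The classes held 15 to 122 gained, 13 to 47 inverted, 0 to 14 lost and 1 to 11 larger responses. The interaction of Lpin1 (0.63), not past the threshold, turned to -0.41 with array weights, -0.86 without 4 libraries and -0.50 without fasted Lpin1+/+ replicate 1, and ran from -0.50 to 1.37 over the fits without 1 library.

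The replicate numbers share only a number. Same-numbered libraries deviated from their group means with correlations of -0.474 to 0.743, over 0.1 in 8 of 18 pairs, and a library correlated best with its own number in 13 of 36 cases, so the replicate block gives no paired result.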
